A study of Rattus norvegicus with 12 samples.

Results

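The genes described here are 8 brakes and readouts of the cell cycle in the rat left ventricle, read as rows of a count table of 30560 genes. They were picked by gene symbol: the cyclin-dependent kinase inhibitors Cdkn1a, Cdkn1b, Cdkn1c, Cdkn2a, Cdkn2b and Cdkn2c, the ubiquitin ligase gene Mdm2 and the nuclear lamina gene Lmnb1. Of the 8, 7 had at least 10 reads in total and were tested among 18182 genes, while Cdkn2a had 6 reads in all and was not. The hearts came from 12 male Wistar rats operated on at 7 weeks of age, 4 in each of 3 groups with 1 library per rat. Sham rats had the chest opened without ligation and received the vehicle, 0.5% carboxymethylcellulose. MI rats had the left anterior descending coronary artery tied permanently, which infarcts the left ventricle, and received the same vehicle. MI + UA rats had the same ligation and received urolithin A (UA), a gut microbial metabolite of ellagitannins, at 50 mg/ml. Dosing was daily by gavage for 8 weeks and began 24 hours after surgery by the labels and the methods, whereas the results text of the study gives the dose per body weight and a later start. The labels mention 1 more MI + UA library that was not analysed here. The RNA was taken from 20 µm sections of formalin-fixed, paraffin-embedded tissue from the middle of the left ventricle, and the shares of scar and spared muscle in a library are not known.

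A cell enters S phase when cyclin-dependent kinases phosphorylate the retinoblastoma protein Rb, and the inhibitors measured here stop that step. The Cip/Kip proteins (Cdkn1a or p21, Cdkn1b or p27, Cdkn1c or p57) bind several cyclin-kinase complexes, whereas the INK4 proteins (from Cdkn2a, Cdkn2b and Cdkn2c) bind Cdk4 and Cdk6 alone. Senescent cells leave the cycle for good with high p21 or p16 (a product of Cdkn2a), lose lamin B1 (Lmnb1) and secrete cytokines and proteases, while adult cardiomyocytes have mostly left the cycle without being senescent.

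Promoters of 3 of these genes are shown for the genes whose differences between groups had the narrowest intervals (Cdkn1b and Mdm2) and the widest (Cdkn2b). RefSeq promoter sequences (build GRCr8, which is newer than the build the counts were made on) were matched by symbol for 7 of the 8 genes, all but Cdkn1c. Each runs 5′ to 3′ on the gene's strand from 250 bases before the start site used in that table to 50 bases after it. They lie at chr4:169491254-169491553 on the + strand (Cdkn1b), chr7:55200742-55201041 on the - strand (Mdm2) and chr5:109134806-109135105 on the - strand (Cdkn2b). Capitals mark every match to 5 motifs searched on both strands: the GC box GGGCGG, the TATA box TATAAA, the CCAAT box CCAAT, the cyclic AMP response element TGACGTCA and the E-box CACGTG.
Cdkn1b: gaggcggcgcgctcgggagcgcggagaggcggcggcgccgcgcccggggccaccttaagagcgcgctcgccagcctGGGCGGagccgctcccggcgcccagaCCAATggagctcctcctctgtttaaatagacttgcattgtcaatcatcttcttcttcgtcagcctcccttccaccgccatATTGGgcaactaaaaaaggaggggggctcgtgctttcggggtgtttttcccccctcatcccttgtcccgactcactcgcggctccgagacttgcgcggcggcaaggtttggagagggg
Mdm2: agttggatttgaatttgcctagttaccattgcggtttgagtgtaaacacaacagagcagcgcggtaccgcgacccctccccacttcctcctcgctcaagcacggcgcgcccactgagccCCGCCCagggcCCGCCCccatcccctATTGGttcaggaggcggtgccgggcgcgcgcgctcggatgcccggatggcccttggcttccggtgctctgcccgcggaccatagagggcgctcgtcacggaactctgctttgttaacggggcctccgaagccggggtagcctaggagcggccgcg
Cdkn2b: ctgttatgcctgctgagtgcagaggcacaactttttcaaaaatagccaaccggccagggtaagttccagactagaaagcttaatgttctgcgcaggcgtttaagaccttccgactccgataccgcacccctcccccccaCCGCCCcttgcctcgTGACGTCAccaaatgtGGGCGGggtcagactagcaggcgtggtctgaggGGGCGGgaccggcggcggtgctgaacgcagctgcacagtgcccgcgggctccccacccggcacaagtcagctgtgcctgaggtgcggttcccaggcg
The Cdkn1b window held 1 GC box and 2 CCAAT boxes. The Mdm2 window held 2 GC boxes and 1 CCAAT box, and the Cdkn2b window 3 GC boxes and 1 cyclic AMP response element. A GC box was present in 33.1% of all promoters, a CCAAT box in 37.5%, a cyclic AMP response element in 1.83%, a TATA box in 14.2% and an E-box in 6.42%. The Cdkn1a window held none of the 5. A match describes the letters only.

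Reads on genes ranged from 6228706 to 8958828 in the Sham libraries, from 6829591 to 12743184 in MI and from 6819444 to 19031695 in MI + UA, and 50.2% to 58.6% of them fell on the 13 mitochondrially encoded genes. Other reads fell on no counted gene feature, which need not mean between genes, or on several genes. Of these and the reads on genes together, 50.4% to 53.4% were on genes in Sham, 47.6% to 49.8% in MI and 46.2% to 50.8% in MI + UA. The Sham and MI libraries did not overlap in this share. The labels and the methods name no batch. Rat 66 carries the MI + UA label but stands among the vehicle-treated MI rats in a table of the study, and it was counted as labelled. Levels are given as CPM, read counts scaled to a common library size, with TMM factors that correct that size for a few very abundant genes. CPM is not corrected for transcript length, so levels were not compared between genes. In each sentence of values, the Sham rats are in the order 12, 17, 32 and 38, the MI rats 36, 57, 61 and 89, and the MI + UA rats 29, 58, 64 and 66.

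None of the 7 tested genes differed between MI and Sham hearts at an adjusted p under 0.05 by edgeR's quasi-likelihood test, a threshold that 11.4% of all tested genes passed. The closest was Cdkn1a, 1.35-fold higher in MI (95% interval 1.08 to 1.69) but with overlapping rats. Cdkn1c, Cdkn2b, Cdkn2c and Lmnb1 had positive fitted differences as well, and Cdkn1b and Mdm2 negative ones, 5 and 2 of the 7. At an unadjusted p under 0.05 the count was 2 of 7 (Cdkn1a and Cdkn1c), beside 23.9% of all genes. DESeq2 also gave 0 after adjustment and 2 before it, beside 2184 and 3956 of all 18182 genes. No member's MI rats were all above or all below the Sham rats, as they were at 15.7% of all genes. The share of reads on genes moved with these groups (above), and its part in the values was not tested. In bulk tissue, fewer cells of a type and less RNA per cell cannot be told apart.

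Among the Cip/Kip genes, Cdkn1a (ENSRNOG00000000521, the inhibitor p21) was read at 47.2, 43.9, 48.8 and 58.9 CPM in Sham, on 290 to 494 reads per rat. In the MI rats it was at 48.4, 85.5, 80.3 and 56.6 CPM, and in the MI + UA rats at 46.7, 65.1, 46.4 and 60.7 CPM. MI rats 57 and 61 stood above every other rat, while MI rats 36 and 89 lay inside the Sham range, and 13 of the 16 MI-Sham pairs of rats had the higher value in MI. Group means were 49.7 ± 6.47 CPM (SD, n = 4) in Sham, 67.7 ± 18.0 in MI and 54.7 ± 9.62 in MI + UA. The log2 fold change of MI over Sham was 0.43 (SE 0.16, edgeR quasi-likelihood test with Benjamini-Hochberg adjustment, adjusted p = 0.0823). It passed the threshold when MI rat 36 was left out (0.57, edgeR adjusted p = 0.0145) and when no filter on low counts was applied (edgeR adjusted p = 0.0231), and over all 15 alternatives the log2 fold change ran from 0.31 to 0.57 with edgeR or DESeq2 adjusted p from 0.0145 to 0.248.

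Cdkn1b (ENSRNOG00000007249), whose product p27 holds resting cells out of the cycle, was at 42.5, 43.2, 43.8 and 37.7 CPM in Sham, at 37.1, 34.8, 37.7 and 42.4 in MI, and at 37.5, 45.5, 42.8 and 44.2 in MI + UA. All 3 groups overlapped, with MI rats 36 and 57 below every Sham rat and MI rat 61 level with the lowest one. The MI over Sham fold was 0.914 (95% interval 0.798 to 1.05, edgeR adjusted p = 0.437). The coefficient of variation between rats was 6.66% in Sham, 8.43% in MI and 8.20% in MI + UA, where counting error alone gives 5.74%, 4.98% and 4.35%.

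Cdkn1c (ENSRNOG00000059500), an imprinted gene whose product p57 stops growth in many developing tissues, was at 3.01, 4.76, 1.85 and 2.86 CPM in Sham on 11 to 33 reads. It was at 4.39, 3.76, 4.46 and 5.70 CPM in MI and at 5.48, 4.75, 4.87 and 3.71 in MI + UA. Each infarcted group lay above 3 of the 4 Sham rats and overlapped with Sham rat 17 alone. The fold of MI over Sham was 1.47 (95% interval 1.03 to 2.10, edgeR adjusted p = 0.163), and that of MI + UA over Sham 1.49 (95% interval 1.05 to 2.12, edgeR adjusted p = 0.159). Without Sham rat 17 both passed, with log2 fold changes of 0.82 (edgeR adjusted p = 0.0450) and 0.84 (edgeR adjusted p = 0.0452), whereas without Sham rat 32 they were 0.40 (edgeR adjusted p = 0.368) and 0.42 (edgeR adjusted p = 0.362). Over all 15 alternatives the log2 fold changes ran from 0.40 to 0.82 with edgeR or DESeq2 adjusted p from 0.0450 to 0.384 in MI versus Sham, and from 0.42 to 0.84 with adjusted p from 0.0452 to 0.362 in MI + UA versus Sham. These comparisons share the Sham rats.

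**Figure D1:**
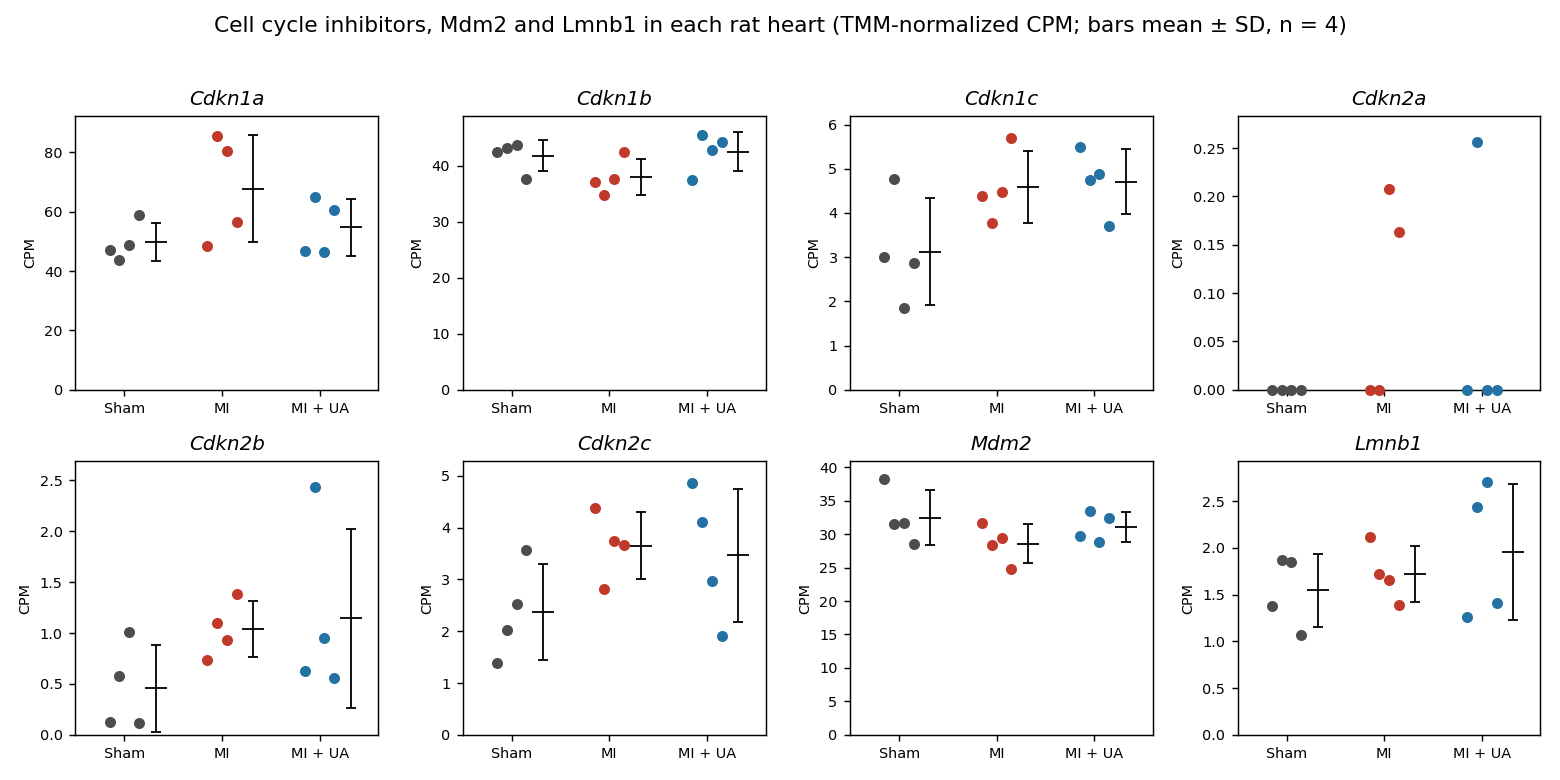
Each panel plots 1 gene, with the level in CPM on the y axis from 0 and the 3 groups on the x axis. Points are rats and bars give the mean ± SD (n = 4), left out for Cdkn2a, which has reads in 3 rats only. MI rats 57 and 61 stand above all others for Cdkn1a, and for no gene are the groups fully apart.

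Of the INK4 genes, Cdkn2a (ENSRNOG00000059837), which encodes the senescence marker p16 and, in another reading frame, Arf, was barely detected. It had 2 reads each in MI rats 61 and 89 and in MI + UA rat 58, and 0 in the other 9 rats, the 4 Sham rats included. A count of 0 allows up to 0.505 CPM in the shallowest Sham library (3 counts, counting error only), which is above the highest level measured, 0.257 CPM in MI + UA rat 58. No difference in Cdkn2a between groups was detected: with no filter on low counts the edgeR adjusted p was 0.366 in MI versus Sham, 0.989 in MI + UA versus MI and 0.574 in MI + UA versus Sham. No fold is given on so few reads.

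Cdkn2b (ENSRNOG00000006735), which lies close to Cdkn2a on chromosome 5 and is a target of TGF-beta signalling through its product p15, had 1, 4, 6 and 1 reads in the Sham rats. The MI rats had 10, 7, 9 and 17 reads and the MI + UA rats 11, 19, 7 and 10. As levels these were 0.119 to 1.01 CPM in Sham, 0.731 to 1.38 in MI and 0.563 to 2.44 in MI + UA, with Sham rat 32 inside both infarcted ranges and Sham rat 17 inside that of MI + UA. The exact Poisson 95% interval of Sham rat 32 alone, 0.371 to 2.20 CPM, covers all 4 MI values. The fold of MI over Sham was 2.40 (95% interval 0.957 to 6.04, edgeR adjusted p = 0.236) and that of MI + UA over Sham 2.44 (0.976 to 6.12, edgeR adjusted p = 0.245), so neither no difference nor a 6-fold one lies outside the intervals. Without Sham rat 32 the log2 fold changes, 1.27 and 1.29 with all rats, became 1.94 (edgeR adjusted p = 0.112) and 1.96 (edgeR adjusted p = 0.119), and without MI + UA rat 58 the second became 0.67 (edgeR adjusted p = 0.625). Without Sham rat 38 they were 0.92 (edgeR adjusted p = 0.467) and 0.94 (edgeR adjusted p = 0.477), and neither passed under any of the 14 alternatives.

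Cdkn2c (ENSRNOG00000008956), which encodes the INK4 inhibitor p18, was at 1.38, 2.02, 2.52 and 3.58 CPM in Sham on 11 to 30 reads. It was at 4.39, 2.82, 3.74 and 3.67 CPM in MI and at 4.86, 4.11, 2.98 and 1.91 in MI + UA. Only MI rat 57 lay below the highest Sham rat, so MI was higher in 15 of 16 pairs of rats, whereas MI + UA overlapped with both other groups. The fold of MI over Sham was 1.55 (95% interval 0.987 to 2.44, edgeR adjusted p = 0.226).

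Mdm2 (ENSRNOG00000006304), which encodes a ubiquitin ligase, was at 38.3, 31.5, 31.6 and 28.5 CPM in Sham. It was at 31.7, 28.4, 29.5 and 24.8 CPM in MI and at 29.7, 33.5, 28.8 and 32.4 in MI + UA. Sham rat 12 was the highest and MI rat 89 the lowest, with the groups overlapping between them. The fold of MI over Sham was 0.881 (95% interval 0.755 to 1.03, edgeR adjusted p = 0.322), so Mdm2 and Cdkn1a had fitted differences of opposite sign, neither of which passed. Over the 12 rats the Pearson correlation of their log2 CPM was -0.27, and 0.02 once group means were taken out, a description of 12 libraries that share the 3 groups.

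Lmnb1 (ENSRNOG00000013774), the lamin that senescent cells lose, was at 1.38, 1.88, 1.85 and 1.07 CPM in Sham on 9 to 13 reads. It was at 2.12, 1.72, 1.66 and 1.38 CPM in MI and at 1.26, 2.44, 2.71 and 1.41 in MI + UA. The ranges of the 3 groups overlapped. The fold of MI over Sham was 1.14 (95% interval 0.695 to 1.85, edgeR adjusted p = 0.812), which leaves a fall of up to 0.695-fold inside the interval.

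**Figure D2:**
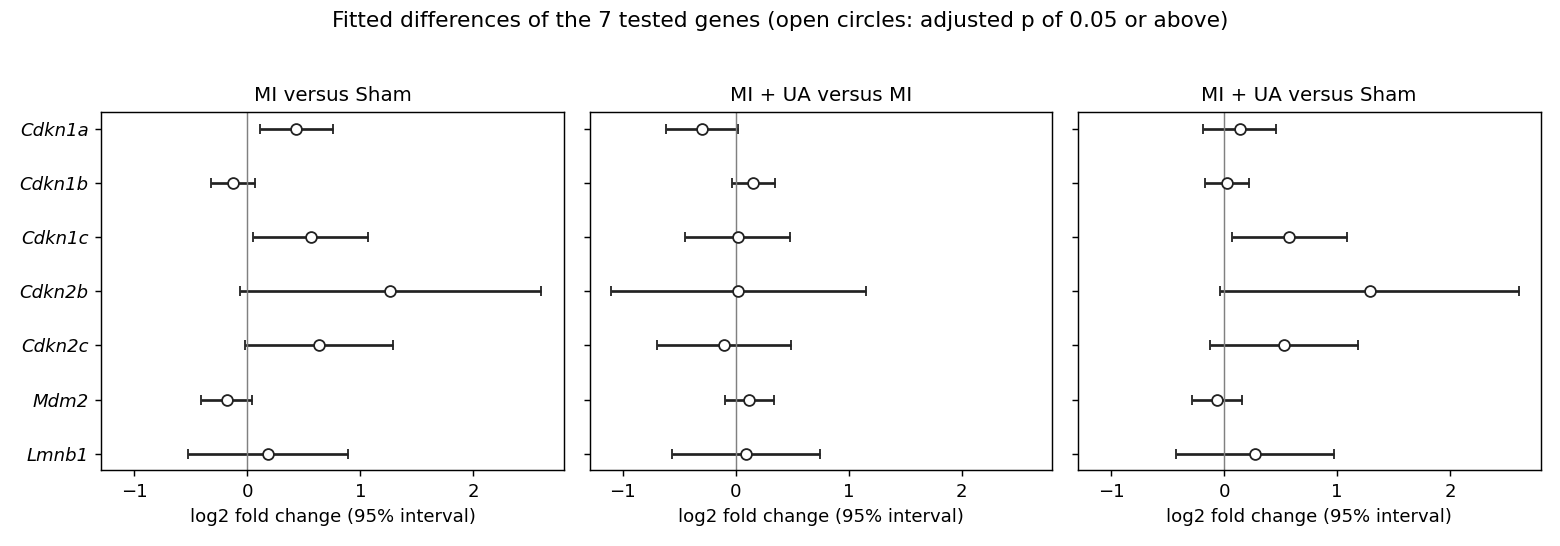
The x axes give log2 fold changes with 95% intervals for the 7 tested genes in the 3 comparisons. Every circle is open because none has an adjusted p under 0.05. Intervals of Cdkn1b and Mdm2 are narrow and that of Cdkn2b is the widest, from a fold of 0.957 to one of 6.04 in MI versus Sham.

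Between infarcted hearts with and without UA, none of the 7 genes passed, and 0% of all 18182 genes did (edgeR adjusted p under 0.05). At an unadjusted p under 0.05 there were 0 of the 7 and 689 of all genes (3.79%), with 0 of the 7 and 481 of all genes by DESeq2. No member had groups that did not overlap, as 2.34% of all genes did. Cdkn1a had the lowest fitted value, a fold of 0.814 (95% interval 0.652 to 1.02, edgeR adjusted p = 0.9998), with each MI + UA rat below the MI median of 68.5 CPM and MI rats 36 and 89 within the MI + UA range. Its log2 fold change, -0.30 with all rats, was -0.43 without MI rat 36 and -0.17 without MI rat 57, and 5 of 15 alternatives gave an unadjusted p under 0.05 but none an adjusted one. Cdkn1b had a fold of 1.11 (0.974 to 1.27) and Mdm2 of 1.09 (0.935 to 1.26). For Cdkn1c the fold was 1.01 (0.733 to 1.40), for Cdkn2c 0.930 (0.617 to 1.40), for Lmnb1 1.06 (0.675 to 1.68) and for Cdkn2b 1.02 (0.464 to 2.23). These intervals bound the UA difference most tightly for Cdkn1b and Mdm2 and least for Cdkn2b, where MI + UA rat 58 with 19 reads stood alone at the top.

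Against Sham, the MI + UA hearts gave 0 of 7 members as well, beside 9.44% of all genes (edgeR adjusted p under 0.05) and 14.3% with groups that did not overlap. Before adjustment 1 member was under 0.05 by edgeR (Cdkn1c), beside 21.8% of all genes, and 2 by DESeq2, beside 3618 of all 18182 genes. Cdkn1a was at a fold of 1.10 (95% interval 0.877 to 1.38), Cdkn1b of 1.02 (0.889 to 1.16), Cdkn2c of 1.45 (0.919 to 2.27), Mdm2 of 0.958 (0.822 to 1.12) and Lmnb1 of 1.21 (0.744 to 1.96). On the log2 scale Cdkn2c, at 0.53 with all rats, was 0.28 without MI + UA rat 29 and 0.83 without Sham rat 38, and Lmnb1, at 0.27, was 0.09 without MI + UA rat 64 and 0.47 without MI + UA rat 29. This comparison shares the Sham rats with MI versus Sham and the MI + UA rats with MI + UA versus MI.

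Of the genes the inhibitors act on, Rb1, the retinoblastoma gene, was at 63.6 ± 5.69 CPM (SD, n = 4) in Sham, 62.6 ± 3.50 in MI and 62.3 ± 4.73 in MI + UA. Cdk4 and Cdk6, the kinases that INK4 proteins bind, had log2 fold changes of 0.01 each in MI versus Sham (edgeR adjusted p = 0.986 for both). Their partner Ccnd1 (cyclin D1) was at 14.4, 20.6, 25.6 and 20.1 CPM in Sham and at 28.2, 26.3, 29.6 and 27.0 in MI. All 4 MI rats lay above all Sham rats, a log2 fold change of 0.47 (SE 0.14, edgeR adjusted p = 0.0312). In MI + UA it was at 26.7, 24.4, 29.6 and 20.6 CPM, overlapping with Sham (log2 fold change 0.33, edgeR adjusted p = 0.160) and with MI (-0.14, edgeR adjusted p = 0.9998). Ccnd1 was the 1 gene called among 13 tested G1 and S cyclins, kinases and their activators, beside 11.4% of all genes, and the median log2 fold change of the 13 was 0.01, beside 0.03 over all genes.

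The other brakes on the cycle gave 1 call in 23 tested genes in MI versus Sham, a fall, beside 11.4% of all genes. It was Tob1, an antiproliferative gene, at 55.7, 69.7, 65.0 and 62.9 CPM in Sham and at 52.2, 42.8, 38.9 and 49.8 in MI, with no overlap (log2 fold change -0.46, SE 0.12, edgeR adjusted p = 0.0195). In MI + UA it was at 64.3, 41.9, 55.8 and 64.2 CPM, spanning both ranges (edgeR adjusted p = 0.523 against Sham). Cdkn2d, the last INK4 gene, had 4 to 18 reads per Sham rat and a log2 fold change of -0.15 (SE 0.45, edgeR adjusted p = 0.889).

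**Figure D3:**
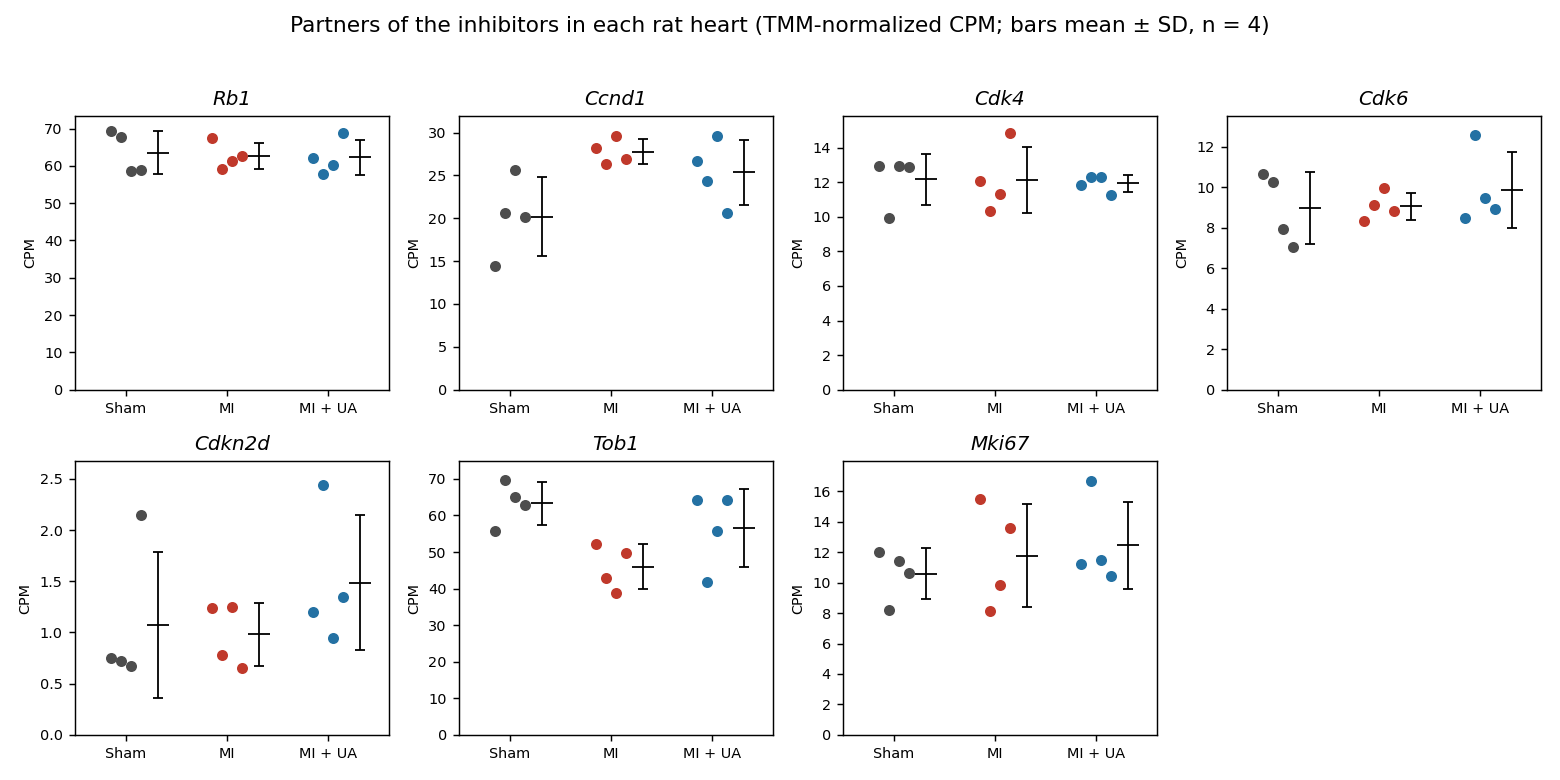
Levels in CPM (y axis from 0) of Rb1, Ccnd1, Cdk4, Cdk6, Cdkn2d, Tob1 and Mki67 in each rat, by group, with mean ± SD (n = 4). The MI rats are fully above the Sham rats for Ccnd1 and fully below them for Tob1, and overlap with them in the other panels.

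Of 18 DNA damage signalling genes, none was called in any comparison by edgeR, with 1 in MI versus Sham, 2 in MI + UA versus MI and 5 in MI + UA versus Sham at an unadjusted p under 0.05, where the shares of all genes were 23.9%, 3.79% and 21.8%. The list of 11 tested genes that degrade Cdkn1a and Cdkn1b proteins gave 2 falls in MI versus Sham, beside 5.53% of all genes. These were Cul4a and Ddb1, parts of 1 ubiquitin ligase that acts on p21, with log2 fold changes of -0.31 (edgeR adjusted p = 0.0207) and -0.25 (edgeR adjusted p = 0.0254). Against Sham, MI + UA put them at -0.21 each (edgeR adjusted p = 0.145 and 0.0694).

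The list of TGF-beta and SMAD genes also held other genes upstream of Cdkn2b and Cdkn1a, such as Myc. It gave 5 rises and 1 fall among 14 tested in MI versus Sham (median log2 fold change 0.23), beside 5.82% and 5.53% of all genes. No SMAD gene was among these calls. The ligand genes Tgfb3 (1.00, edgeR adjusted p = 1.11e-05), Tgfb2 (1.31, edgeR adjusted p = 0.000398) and Tgfb1 (0.41, edgeR adjusted p = 0.0340) rose. So did Myc, a repressor of Cdkn2b and Cdkn1a transcription, from 3.77 ± 1.20 CPM (SD, n = 4) in Sham to 11.1 ± 5.88 in MI (log2 fold change 1.52, edgeR adjusted p = 0.00314), with 0.77 in MI + UA versus Sham (edgeR adjusted p = 0.168). The remaining calls, named after their values were seen, were a rise of Klf4 (0.38, edgeR adjusted p = 0.0419) and a fall of Zbtb17, a partner of Myc in that repression (-0.57, edgeR adjusted p = 0.0382). In MI + UA versus Sham 5 rose and 0 fell, among them Tgfb3, Tgfb2, Tgfbr2 and Tgfbr1, beside 5.16% and 4.27% of all genes. The receptor genes Tgfbr2 and Tgfbr1 were at log2 fold changes of 0.41 and 0.47 there and of 0.31 and 0.23 in MI versus Sham (edgeR adjusted p = 0.0883 and 0.308). Of 24 regulators of the Cdkn2a and Cdkn2b locus, mostly Polycomb genes, 0 were called in MI versus Sham by edgeR (1 at an unadjusted p under 0.05). In MI + UA versus Sham, Ezh2, the Polycomb methyltransferase, was higher (log2 fold change 0.60, edgeR adjusted p = 0.0453) and Ets2, an activator of Cdkn2a, lower (-0.41, edgeR adjusted p = 0.0185), 1 call each way beside 5.16% and 4.27% of all genes. In MI versus Sham the same genes were at 0.31 (edgeR adjusted p = 0.353) and -0.20 (edgeR adjusted p = 0.263), and neither passed in MI + UA versus MI (edgeR adjusted p = 0.9998 for both).

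Of 33 tested secreted and surface genes linked to senescence, 15 rose and 0 fell in MI versus Sham, beside 5.82% and 5.53% of all genes, and their log2 fold changes had a median of 0.76. The protease inhibitor gene Timp1 rose from 2.89 ± 0.990 CPM (SD, n = 4) to 10.6 ± 2.13 (log2 fold change 1.86, edgeR adjusted p = 4.01e-05). The growth factor binding protein gene Igfbp7 (0.85, edgeR adjusted p = 0.000140), the adhesion gene Icam1 (1.03, edgeR adjusted p = 0.000561) and the gelatinase gene Mmp2 (0.70, edgeR adjusted p = 0.000774) rose as well. In MI + UA versus Sham 15 rose and 0 fell, beside 5.16% and 4.27% of all genes, with Timp1, Mmp2 and Igfbp7 at log2 fold changes of 1.79, 0.76 and 0.70. Spp1 (osteopontin) was far above Sham in both infarcted groups, with log2 fold changes of 3.41 in MI (edgeR adjusted p = 0.00115) and 4.13 in MI + UA (edgeR adjusted p = 0.000243), which overlapped with each other. In MI + UA versus MI none of the 33 was called by edgeR (1 at an unadjusted p under 0.05). Fibroblasts and macrophages also express many of these genes without being senescent, and Tgfb1 is in both this list and that of the TGF-beta genes.

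Markers of those cells moved with the same groups, in counts to be set beside the shares of all genes that rose or fell, 5.82% and 5.53% in MI versus Sham and 5.16% and 4.27% in MI + UA versus Sham. Fibroblast markers summed to 1127 to 1439 CPM in Sham, 2188 to 3574 in MI and 2205 to 3685 in MI + UA, and 6 of 8 rose in MI versus Sham. Macrophage markers summed to 121 to 152 CPM in Sham, 246 to 397 in MI and 206 to 424 in MI + UA, with 7 of 8 rising. All 7 cardiomyocyte markers tested fell. They summed to 43991 to 49994 CPM in Sham, 30517 to 36213 in MI and 32172 to 43129 in MI + UA, so heart muscle was present in every library. In MI versus Sham, of the other lists, smooth muscle cell and pericyte markers gave 4 rises in 8, endothelial markers 1 fall in 8, skeletal muscle markers 1 rise in 4, and lymphocyte and adipocyte markers 0 calls in 7 and in 4. In MI + UA versus Sham these counts were 1 rise, 1 fall (Kdr), 1 rise (Tnnt3), 0 calls and, of the adipocyte markers, 1 fall (Fabp4, log2 fold change -0.54, edgeR adjusted p = 0.00341). Of the adipocyte markers, Adipoq and Cidec were at 0 in Sham (Cidec in MI + UA as well), as was Myh4 of the skeletal muscle markers. The part of these cell types in the values of the inhibitors and of the secreted genes was not tested.

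Lamina genes other than Lmnb1 gave 2 falls and 0 rises in 10 tested in MI versus Sham, beside 5.53% and 5.82% of all genes. Of the 10 differences, 6 were positive, with a median log2 fold change of 0.10. Over all genes 47.0% were negative and the median was 0.03. Tmpo, which encodes lamina-associated polypeptides, was at 683 ± 26.4 CPM (SD, n = 4) in Sham and 499 ± 17.2 in MI (log2 fold change -0.45, edgeR adjusted p = 0.000219). Banf1, a DNA-binding protein of the nuclear envelope, had a log2 fold change of -0.40 (edgeR adjusted p = 0.00524). Both were lower in MI + UA than in Sham too (-0.38, edgeR adjusted p = 0.00130, and -0.33, edgeR adjusted p = 0.0245), where Lmna, the gene of lamins A and C, was higher (0.40, edgeR adjusted p = 0.0163). In MI the same gene was at 0.31 against Sham (edgeR adjusted p = 0.0542), again with every infarcted rat above every Sham rat, and MI + UA overlapped with MI (0.08, edgeR adjusted p = 0.9998). Genes of S phase and mitosis gave 1 rise among 27 in MI versus Sham, beside 5.82% of all genes, that of the ribonucleotide reductase gene Rrm2, on 71 reads in all (log2 fold change 1.91, SE 0.59, edgeR adjusted p = 0.0387, and 1.02 in MI + UA versus Sham, edgeR adjusted p = 0.370). Their median log2 fold change was 0.27 with 22 of 27 positive, beside a median of 0.03 and 47.0% negative over all genes. Mki67, the proliferation marker, was at 10.6 ± 1.68 CPM (SD, n = 4) in Sham and 11.8 ± 3.37 in MI (log2 fold change 0.18, edgeR adjusted p = 0.630).

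**Figure D4:**
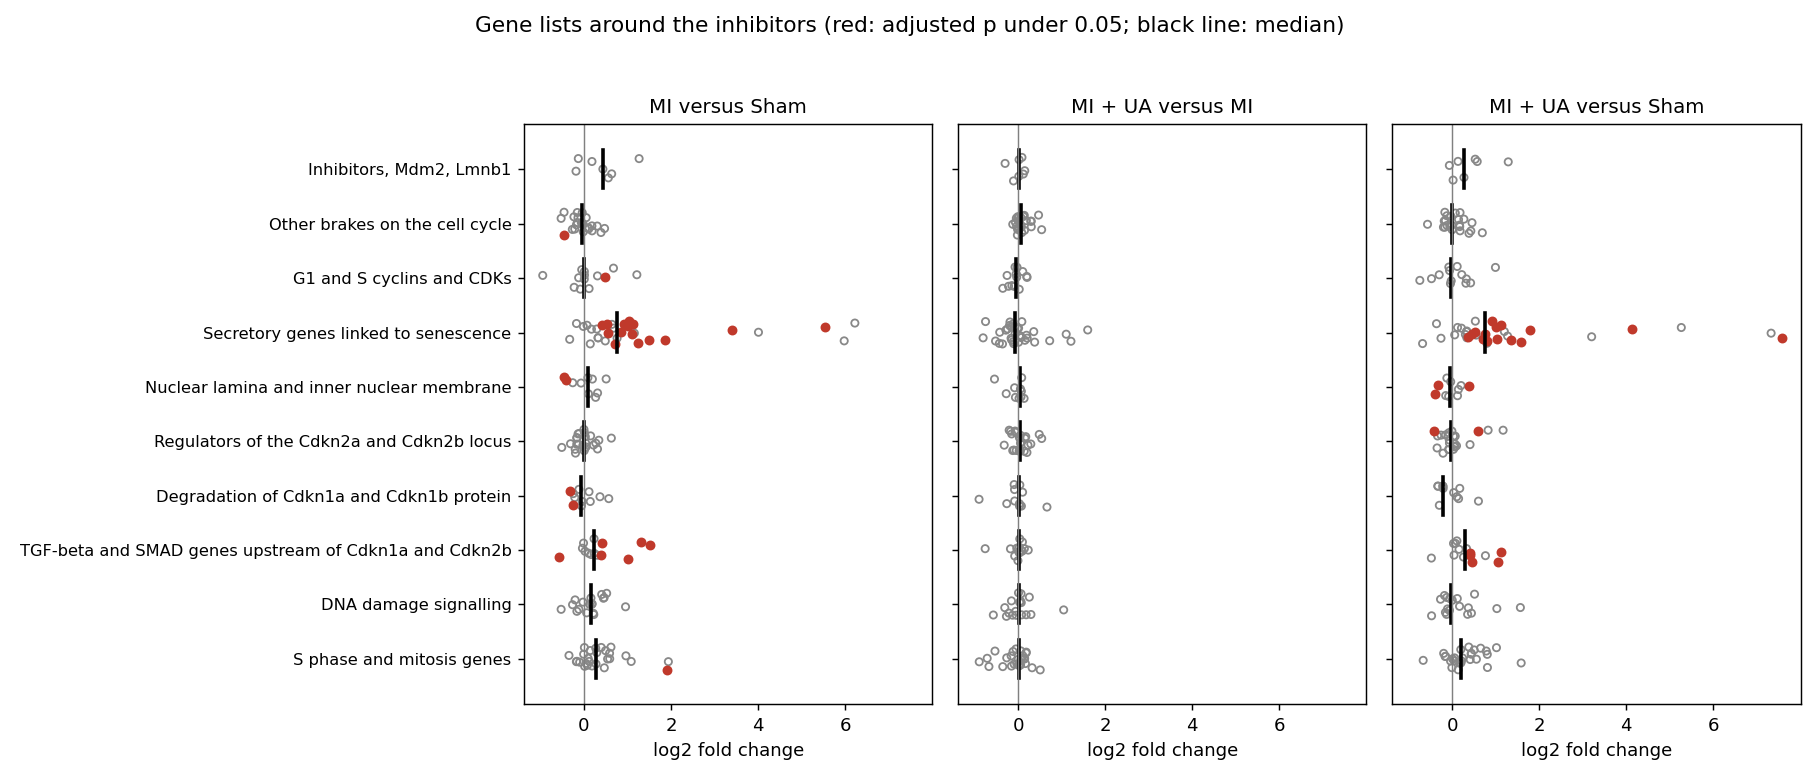
Each point is a gene of the list named on the y axis, placed by its log2 fold change in the comparison above the panel. Filled red points have an edgeR adjusted p under 0.05 and black lines are medians. The inhibitors hold no red point, the secreted genes hold 15 in each comparison with Sham, and the middle panel has none at all.

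Over the 21 pairs of tested members, the Pearson correlation of log2 CPM over 12 rats ran from -0.55 (Cdkn2c with Mdm2) to 0.63 (Cdkn2b with Lmnb1), a description of libraries that share 3 groups. The last pair rests on 1 to 29 reads per gene and rat, with 19 reads of each in MI + UA rat 58. Variation between rats beyond counting error was plainest for Cdkn1a in MI, where the coefficient of variation was 26.6% and counting alone gives 3.87%. For Lmnb1 in Sham the coefficient was 25.2%, below the 30.2% that counting alone gives.

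The genes most like each member with a mean log2 CPM of at least 1 were sought among 10696 genes by the Pearson correlation over 12 rats, which describes these libraries, group differences included. Picked as the highest of so many, the values are high partly by selection and were not tested. For Cdkn1a they were Scn3b (a sodium channel subunit, 0.91), Calr (the endoplasmic reticulum chaperone calreticulin, 0.89) and Oma1 (a mitochondrial inner membrane protease, 0.87). For Cdkn1b they were the lysosomal enzyme genes Tpp1 (0.86) and Asah1 (0.83) and Smad5 (0.83). Cdkn1c was most like Sgsh (0.94), Dlg4 (0.93) and Tnfrsf11b (0.92). Cdkn2c was most like Col18a1 (0.92), Zfp862 (0.90) and AABR07071244.1 (0.89), and Mdm2 like Nrbp2 (0.90), Acss2 (0.89) and Zranb2 (0.88).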

How the data were processed

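RNA from paraffin sections of 12 rat hearts was sequenced on strand-specific libraries after depletion of ribosomal RNA, as the methods state, although the labels call the molecule polyA RNA. The authors aligned the reads to mRatBN7.2 with STAR 2.6.1c and deposited raw counts per Ensembl gene made with HTSeq, MultiQC 1.8 serving for quality control (tools and build per the submitters' processing notes). The strand setting of the counting is not given in the sources used here. The 5 summary lines of each library (unassigned reads) were kept out of library sizes and tests.

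Genes with at least 10 counts over the 12 rats were tested with edgeR 4.0.16 (R 4.3.3, limma 3.58.1), with TMM factors, the 3 groups in 1 quasi-likelihood fit, no covariate and Benjamini-Hochberg adjustment over all 18182 genes. Standard errors were computed from the log2 fold change and the F statistic. Fold intervals (95%) use them with the fit's total (prior plus residual) degrees of freedom. Log2 CPM for correlations used a prior count of 1. Intervals of single libraries are exact Poisson intervals and, like the floor of 3 counts, cover counting error only. The labels number the rats, so spread is between animals. Alternatives were DESeq2 1.42.0, the compared groups alone, other filters, other scalings, rat 66 counted as MI, and each rat left out. On data simulated for MI versus Sham over 17907 genes, the fit called 22% of genes changed by a log2 fold of 0.5, 72% of those changed by 1, 86% of those changed by 2 and 53.3% of those changed by -1, with 8 false calls. Each size had 50 changed genes (45 for -1), in all a smaller share than the 11.4% called in the data. These rates therefore do not give the sensitivity in the data. Plots came from Python 3.11.15 and matplotlib 3.10.9.

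The members, gene lists and marker lists were chosen with earlier results of these data known. Genes named were all 8 members, Rb1, Ccnd1, Cdk4, Cdk6, Cdkn2d and Mki67, from each list at most 4 called genes per comparison by smallest p, and the 3 genes most like each member. Klf4, Zbtb17 and the markers at 0 (Adipoq, Cidec and Myh4) were named outside this rule, after their values were seen. Lists were described by counts and medians. Results of 1 gene and 1 list are not reported here.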

Additional observations from a re-analysis of the deposited data

Results flagged for a closer look

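For 36 genes, each examined in 3 groups of 4 rats, 1 rat lay far from the other 3 in 2 groups, where chance gives about 5.4. Cdk4 in Sham had rat 17 at a log2 CPM of 3.33 while the others lay at 3.70 and above, a gap that took 0.975 of the group's range. Cdkn2d in Sham had rat 38 at a log2 CPM of 1.17 with the next at -0.23, a gap of 0.908 of the range, and Cdkn2d had 4 to 18 reads per Sham rat. None of the 7 tested members was singled out in any group, and Cdkn2a was not examined.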

How the results depend on the processing

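Over 104 refitted member values per comparison, direction and side of the threshold held for 101 in MI versus Sham, 93 in MI + UA versus MI and 99 in MI + UA versus Sham. Without a filter on low counts, 1 of 8 members passed in MI versus Sham (Cdkn1a, log2 fold change 0.43), beside 2216 of all 22587 genes. In MI + UA versus MI, 3 genes of all passed without that filter. Leaving out each rat gave 0 to 1 members in MI versus Sham (Cdkn1a without MI rat 36, Cdkn1c without Sham rat 17), 0 to 1 in MI + UA versus Sham (Cdkn1c without Sham rat 17), and 0 to 1 genes of all in MI + UA versus MI (1 without MI rat 36). In MI versus Sham, 1929 of all 17938 genes passed without MI rat 36 and 1658 of 18092 without Sham rat 17. In MI + UA versus Sham, 1341 of 18092 passed without Sham rat 17. Directions that turned were those of values near 0. With rat 66 counted as MI, log2 fold changes in MI + UA versus MI were 0.30 for Cdkn2c, 0.46 for Cdkn2b, 0.20 for Cdkn1c, 0.30 for Lmnb1 and 0.08 for Cdkn1b. These lie outside the ranges given next, and none passed. Cdkn1a was at -0.33 and Mdm2 at 0.06, inside theirs. With each rat left out, log2 fold changes in MI + UA versus MI ran from -0.086 to 0.15 for Cdkn1c, from -0.59 to 0.29 for Cdkn2b, from -0.43 to -0.17 for Cdkn1a, from 0.12 to 0.21 for Cdkn1b, from 0.05 to 0.18 for Mdm2, from -0.37 to 0.13 for Cdkn2c and from -0.096 to 0.27 for Lmnb1. In MI + UA versus Sham they ran from -0.025 to 0.093 for Cdkn1b, from -0.12 to 0.029 for Mdm2, from 0.05 to 0.23 for Cdkn1a, from 0.28 to 0.83 for Cdkn2c and from 0.09 to 0.47 for Lmnb1. In MI versus Sham they ran from -0.19 to -0.09 for Cdkn1b, from -0.24 to -0.09 for Mdm2, from 0.43 to 0.93 for Cdkn2c and from 0.03 to 0.30 for Lmnb1. The cause was not tested. edgeR's own expression filter dropped Cdkn2b and gave no value for it. No paired analysis was possible because each rat belongs to a single group. Depth limits Cdkn2a, Cdkn2b, Cdkn2c, Cdkn1c and Lmnb1, each with under 100 reads in every rat.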
